A study of Mus musculus with 48 samples.

Results

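The baseline relation between ribosome footprints and messenger RNA was measured gene by gene in wild-type (WT) Ba/F3 cells, by setting the 3 WT footprint libraries against the 3 WT RNA-seq libraries of the same numbers. A gene was included when its RNA averaged at least 5 CPM (counts scaled to a library total of 1000000) over the 3 RNA libraries, which left 9504 of the 55487 genes in the table. Ba/F3 is an established mouse line described as pro-B, which grows only when interleukin 3 is supplied. All WT cells were cultured in RPMI with 10% foetal calf serum and 1 ng/ml interleukin 3, and all received 0.1 mg/ml cycloheximide, a drug that stops elongating ribosomes, for 1 min before harvest. The series also holds 7 ribosomal protein genotypes, 3 clones each, which appear here only where the WT order of genes is set beside theirs. They are the point mutants Rps15 H137Y, Rps15 P131S and Rpl10 R98S, the heterozygotes Rpl5+/-, Rpl11+/- and Rpl22+/-, and Rpl22-/-. The sample titles give both alleles as mutant for Rpl10 R98S and Rps15 H137Y, and for Rps15 P131S in the footprint titles only. The series lists WT among its clones, numbered 1 to 3, and nothing more is said about how the WT samples were obtained. The p-values therefore measure the spread between these 3 samples, which may be partly technical.

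Ribosome profiling digests away the messenger RNA that ribosomes do not cover and sequences the short stretches that they shield. Footprints counted for each unit of RNA reflect how many ribosomes sit on each messenger, and this depends on how often initiation succeeds and how fast ribosomes move. Messenger RNAs differ in this respect through features of their 5′ leaders, such as upstream reading frames, structure, iron response elements and the pyrimidine tract that opens transcripts of the translation machinery (the 5′ terminal oligopyrimidine or TOP motif).

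Each lysate was split. One portion gave poly(A)-selected, strand-specific RNA-seq libraries of 25317713 to 27470910 counts, and the other was treated with RNase I and gave libraries of fragments of 28 to 30 nt, depleted of ribosomal RNA, of 46806204 to 71443928 counts. The 9504 genes held 99.5% of the counts of each RNA library and 93.1% to 93.7% of those of each footprint library. The ratio used below is footprint CPM over RNA CPM on a log2 scale, with its zero set at the median gene, whose footprint CPM was 0.787 times its RNA CPM. A log2 ratio of 1 therefore means a ratio 2-fold above that of the median gene. Footprints come from coding sequence and RNA reads from whole transcripts, and the ratio was not divided by either length, so the coding share of a transcript and the density of ribosomes on it cannot be told apart. Because the median gene and not equal CPM is the zero, an equal-CPM zero moves every value by -0.345.

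The line was checked against markers. Of 15 haematopoietic and pro-B markers, 7 reached 5 CPM of RNA, among them Ptprc (CD45), the interleukin 3 receptor chains Il3ra, Csf2rb and Csf2rb2, Spi1 and Ikzf1, and their summed level was 1300 to 1430 CPM. Ebf1, Igll1, Rag1 and Kit were at 0 counts in all 3 RNA libraries and Cd79a, Pax5 and Vpreb1 were below 1 CPM, so most of the genes that define the B lineage were at or near 0, with Cd79b the exception at 6.23 to 10.4 CPM. Of 17 markers of T cells, fibroblasts, epithelium, erythroid, myeloid and endothelial cells, 10 were at 0 and 14 were under 1 CPM, with a summed level of 157 to 194 CPM. Pecam1, also used as an endothelial marker, made up most of that sum at 133, 143 and 148 CPM, while the other endothelial marker, Cdh5, was at 0. The erythroid marker Hba-a1, an alpha globin, was at 20.1, 16.2 and 43.7 CPM of RNA and 16.2, 10.2 and 49.1 CPM of footprints, highest in clone 3, and its part in any result was not tested.

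Footprint-to-RNA ratios spread widely around the median gene and were close between clones. The middle 90% of genes spanned log2 ratios of -2.85 to 1.6, a 21.8-fold range, and the middle 50% spanned -0.93 to 0.75. The standard deviation (SD) of a gene's log2 ratio over the 3 clones was 0.156 at the median gene and 0.35 at the 90th percentile, and Spearman's rho of the ratio across the 9504 genes was 0.964 to 0.977 between clones. A gene was called above or below when edgeR's quasi-likelihood fit, with clone as a block, placed its ratio more than 2-fold from the median gene at a Benjamini-Hochberg adjusted p under 0.05. This called 3021 genes, 31.8% of those tested. Of these, 1191 (12.5%) lay above and 1830 (19.3%) below, and each had all 3 clones on the same side of the median gene. With the zero at equal CPM, the split became 574 above and 2471 below. The tail was longer on the low side, with 999 genes at least 4-fold below the median gene against 179 at least 4-fold above. The threshold was on RNA only, so genes with footprints but little RNA were left out, while the reverse were kept. The tails were therefore not filtered alike. With no RNA threshold, 2924 of 17032 genes were above and 3372 below. The genes nearest the RNA threshold had mean RNA of 4.99 (Mocos), 4.99 (Gm32468) and 5.0 CPM (Gm9531) outside it and 5.01 (Gm17251), 5.03 (9130023H24Rik) and 5.03 CPM (Arhgap31) inside it. Their mean footprint CPM was 6.52, 3.99 and 296 outside, and 1.53, 2.92 and 3.84 inside.

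**Figure D1:**
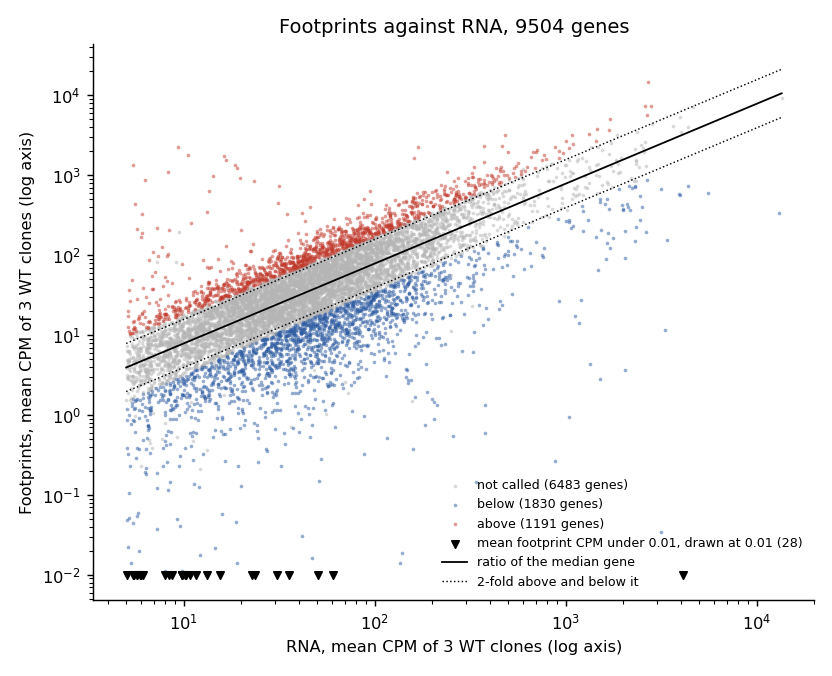
Mean RNA CPM (x, log axis) against mean footprint CPM (y, log axis) over 3 WT clones for 9504 genes, coloured by call, with the ratio of the median gene as a solid line and 2-fold above and below it dotted; triangles are genes with under 0.01 CPM of footprints. The 1830 genes below reach farther from the line than most of the 1191 above.

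Several protein-coding genes with at least 20 CPM of RNA, outside the histones, had far more footprints than RNA. Rnaset2b, which encodes a lysosomal ribonuclease, had RNA of 21.3, 15.7 and 23.0 CPM in clones 1, 2 and 3 and footprints of 218, 213 and 190 CPM. The footprints were far above the RNA in every clone, and the log2 ratio was 3.72 (SD 0.37, n = 3, edgeR adjusted p = 3.32e-09). Its value is uncertain, since Rnaset2b has a near-identical neighbour, Rnaset2a.

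Actb, cytoplasmic actin, was the most abundant of the genes with the highest ratios. Its RNA was 2470, 2890 and 2720 CPM and its footprints were 14500, 13500 and 16300 CPM, a log2 ratio of 2.80 (SD 0.19, adjusted p = 1.16e-10), and it shares long stretches of coding sequence with Actg1, which was also above (1.74). Also among them were Csnk2b, the regulatory subunit of casein kinase 2, Emc1, a subunit of the membrane insertase of the endoplasmic reticulum, and Ndufs5, an accessory subunit of respiratory complex I. Csnk2b had RNA of 98.7, 96.1 and 89.8 CPM and footprints of 649, 589 and 679 CPM (log2 ratio 3.10, SD 0.14). Emc1 had RNA of 22.8, 23.7 and 23.0 CPM and footprints of 135, 140 and 144 CPM, and at an SD of 0.04 its log2 ratio of 2.94 differed little between clones. Ndufs5 had RNA of 85.7, 87.7 and 90.3 CPM, and its footprints of 609, 380 and 530 CPM were lowest in clone 2 (log2 ratio 2.85, SD 0.35). In each of these 5 genes every footprint value was above every RNA value.

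The lowest ratios rested on few or no footprint counts. In all, 28 of the 9504 genes had no footprint count in any clone, of which 9 were pseudogenes, 12 were identifiers without a biotype in the reference table, 1 was a lncRNA and 6 were protein-coding (Nnt, Pcdhgc4, Lbhd1, Lrrc8a, Igip and Yy2). For these genes only a bound is given, taken at 3 counts over the 3 footprint libraries. Nnt, the mitochondrial nicotinamide nucleotide transhydrogenase, had RNA of 63.8, 58.3 and 59.2 CPM and no footprint, a ratio at least 2680-fold lower than that of the median gene. A second identifier with the symbol Nnt carried the opposite, no RNA and footprints of 48.6, 50.7 and 52.4 CPM. With both identifiers summed the log2 ratio of Nnt was 0.09 and the call was lost (adjusted p = 1.0). Pcdhgc4, a clustered protocadherin, had RNA of 24.7, 21.8 and 22.1 CPM and no footprint, a ratio at least 1010-fold lower. Arhgef4, Myl12b, Nt5dc3 and Zc3h11a were also called below and lost the call when identifiers with the same symbol were summed, with log2 ratios moving from -4.79 to 0.34, from -2.98 to -0.50, from -2.68 to -0.42 and from -2.28 to -0.63.

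The other 4 of the 6 lowest genes had a few footprints. Hmgb1, a chromatin protein, had RNA of 1020, 1070 and 1020 CPM and footprints of 0.845, 1.24 and 0.709 CPM, a log2 ratio of -9.78 (SD 0.38, adjusted p = 3.92e-15). A named copy is an identifier with the gene's symbol followed by -ps or -rs. Copies under other symbols, such as Gm names, were not searched for or added. With the counts of its 13 named copies added Hmgb1 stayed far below, at -7.77. Rpl10, the ribosomal protein altered in another genotype of the series, behaved otherwise. It had RNA of 1980, 2070 and 2090 CPM and footprints of 3.74, 3.33 and 4.03 CPM (log2 ratio -8.76, SD 0.13, adjusted p = 7.68e-16), but with its copies added the value was -0.42 and not called (adjusted p = 1.0). The remaining pair rested on a handful of counts. Atp5g2, the c subunit of ATP synthase, had RNA of 343, 342 and 336 CPM and footprints of 0, 0.439 and 0 CPM (log2 ratio -10.97, SD 3.31, adjusted p = 0.0141), and its call was lost without clone 1 (adjusted p = 0.075) or clone 3 (0.0861). Cycs, cytochrome c, had RNA of 240, 275 and 257 CPM and footprints of 0, 0.409 and 1.23 CPM (log2 ratio -8.74, SD 3.86, adjusted p = 0.0292), and its call was lost without clone 2 (adjusted p = 0.255) or clone 3 (0.0613).

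The lowest protein-coding genes with no copy named after them were listed after their values were seen. Copies under other symbols were not searched for, so read assignment was not checked for these genes. Sap18, a subunit of a histone deacetylase complex, had RNA of 193, 213 and 204 CPM and footprints of 1.11, 0.878 and 0.722 CPM, and its log2 ratio of -7.43 was steady between clones (SD 0.36, adjusted p = 2.29e-14). Raver1, an RNA-binding protein, was at -7.68 (SD 1.29, adjusted p = 0.0093), and its call was lost without clone 2 (adjusted p = 0.0815) or clone 3 (0.0574). Cdk2ap1 was at -6.69 (SD 0.80, adjusted p = 0.00363) and lost the call without clone 3 (adjusted p = 0.063), and 1 of the identifiers of Bcl2l2, at -7.34, lost it without clone 2 (0.0742). Clrn3, a membrane protein, was at -6.15 with footprints of only 0.508, 0.138 and 0.127 CPM. Hmga1b (-7.85) and Entpd4b (-6.89) each have a near-identical paralogue and are uncertain.

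For several genes with processed copies, RNA and footprints were assigned to different identifiers. In the footprint libraries the 8628 pseudogenes of the table held 5.60%, 5.91% and 5.47% of counts, against 1.70%, 1.77% and 1.82% in the RNA libraries. Rps26 had RNA of 1440, 1490 and 1500 CPM and footprints of 75.9, 60.2 and 62.3 CPM, while its copy Rps26-ps1 had RNA of 696, 646 and 675 CPM and footprints of 2170, 1990 and 1780 CPM. Most of the footprints of the pair were thus assigned to the copy and most of the RNA to the parent, and the log2 ratio moved from -4.14 for Rps26 alone to 0.27 with copies added. The ubiquitin gene Ubb had footprints of 186, 240 and 225 CPM against 1850, 1700 and 1870 CPM on Ubb-ps, whose RNA was 7.71, 11.2 and 12.7 CPM. Ubb was called below alone (-1.95) and above with its copies added (1.26, adjusted p = 0.00255), the only gene of the 2960 called in both analyses that turned direction. For Pgk1, a glycolytic kinase, the ratio was -1.94 alone and 0.51 with copies added. Its copy Pgk1-rs7 had no RNA and footprints of 3010, 2980 and 646 CPM, much lower in clone 3 than in the other clones. The copies named here are among those with the most footprints, and not all copies were alike. Rps2-ps10 had RNA of 3340, 3400 and 3420 CPM and footprints of 138, 135 and 186 CPM. Genes that have a named copy, or are one, made up 3.40% of all 9504 genes (323), 11% of the 218 genes at least 16-fold below the median gene and 12.3% of the 179 genes at least 4-fold above it. Genes that are not protein-coding made up 3.98%, 35.3% and 31.8% of the same groups. How reads that match several places were assigned is not given in the sources used here, so values for genes with such copies are uncertain.

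**Figure D2:**
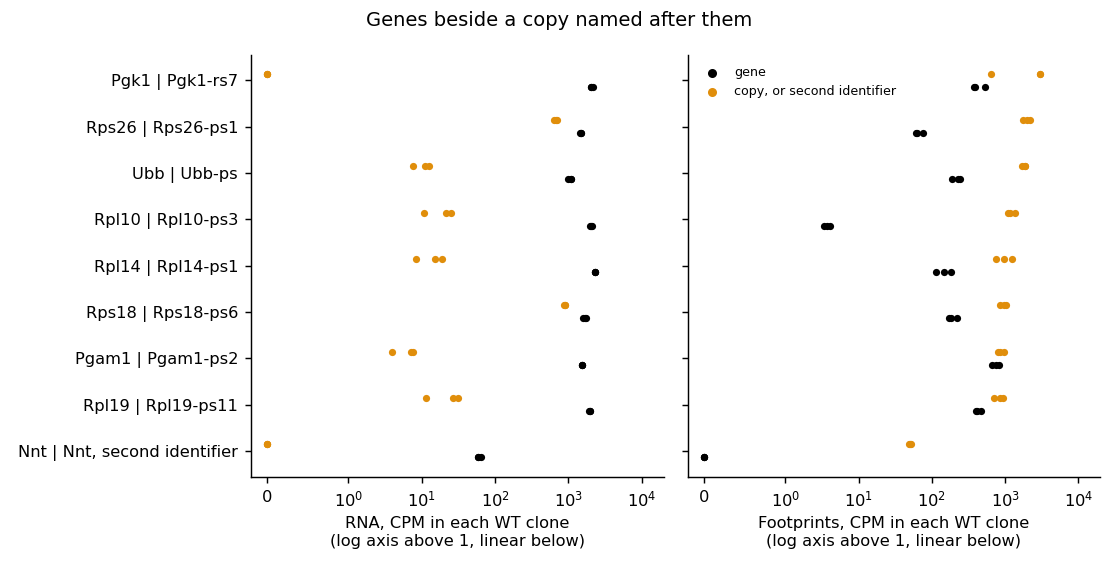
RNA CPM (left) and footprint CPM (right) in each of the 3 WT clones, on axes that are logarithmic above 1 and linear below, for 8 genes (black) and a copy named after each (orange), and for both identifiers of Nnt. In RNA every gene lies to the right of its copy, and in footprints the copy lies to the right or, for Pgam1, overlaps its gene. The 8 copies shown are those with the most footprints among named copies of tested genes, so their footprint pattern follows from this choice.

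Ribosomal protein messengers as a family carried fewer footprints for their RNA than the median gene. The 79 genes had a median log2 ratio of -0.92 (-0.92, -0.94 and -0.78 in clones 1 to 3), against 0 over all genes, and 33 were below and 3 above, which is 41.8% and 3.8% against 19.3% and 12.5% of all genes. With the zero at equal CPM, 40 were below and 1 above. Together they took 14.2%, 14.3% and 14.4% of the counts of the RNA libraries and 7.14%, 7.15% and 7.39% of those of the footprint libraries. With copies added, 24 were below and 3 above and the median was -0.61, while the 18 genes with no named copy had a median of -0.92 with 5 below and 1 above. The 46 proteins of the large subunit had a median of -0.72 (21 below, 2 above) and the 32 of the small subunit had -0.92 (11 below, 1 above).

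Among single ribosomal proteins the range was wide. Rplp0, the stalk protein with the most RNA of the family, had 5530, 5490 and 5620 CPM of RNA and 565, 573 and 649 CPM of footprints (log2 ratio -2.88, SD 0.09, adjusted p = 2.22e-11). Rpl22 was the highest of the 79, with RNA of 993, 983 and 1020 CPM and footprints of 2570, 2540 and 2920 CPM (1.76, SD 0.08, adjusted p = 1.85e-07). Rps6, the small-subunit protein phosphorylated downstream of mTOR (1.42), and Rpl37 (1.25) were the other members above. Of the proteins altered in other genotypes, Rpl5, which binds 5S rRNA with Rpl11, had RNA of 2400, 2460 and 2450 CPM and footprints of 568, 571 and 512 CPM (-1.80, SD 0.10, adjusted p = 1.04e-07). Its partner Rpl11 had RNA of 1750, 1760 and 1780 CPM and footprints of 1040, 1260 and 1090 CPM (-0.30, SD 0.15, adjusted p = 1.0). The 2 proteins of that 5S particle thus had unequal ratios in WT cells, with no test run on their difference. Rps15 was at -1.26 (SD 0.26, adjusted p = 0.00992), a call lost without clone 1 (adjusted p = 0.0556) or clone 2 (0.0993) and with limma (0.0517).

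The start sites of these genes show what a TOP messenger looks like. Annotated starts were taken from RefSeq (GRCm38.p6), a TOP start was counted as a C at the start followed by at least 4 of C or T, and 58 of the 79 genes had a start in that table. Shown are the 7 called genes among the 14 that had a TOP start, each with the bases 1 to 30 of the transcript, 5′ to 3′, and the pyrimidine tract in capitals.
Rpl35 at chr2:39005102-39005131, minus strand: CTCTTTCTCTCgaaccaggctgcttcagcc
Rpl15 at chr14:18270957-18270986, minus strand: CTTCCTTTCCTCTggcggcagccatcaggt
Rpl14 at chr9:120571517-120571546, plus strand: CTTCTCgctgagcgccgccaacatggtgag
Rps18 at chr17:33955636-33955665, minus strand: CTCTCTTCCacaggaggcctacacgccgcc
Rps27 at chr3:90213619-90213648, minus strand: CCTTTCCggcggtgacgacctccctacgag
Rplp2 at chr7:141447651-141447680, plus strand: CTTTCgccgccggacgccgccgaggtcgca
Rps6 at chr4:86857338-86857367, minus strand: CTCTTTTTCgtgacgcctcccaggcgctcg
The first 6 were below, at log2 ratios of -8.70, -3.83, -3.64, -2.77, -1.59 and -1.46, and Rps6 was above at 1.42 with a tract of 9 bases. With named copies added, Rpl14 was at -0.72 and Rps18 at -0.93 and neither was called (adjusted p = 1.0 for both), while the calls of the other 5 held. Rpl35, whose tract of 11 bases is longer than that of Rps6, was at -8.69 with named copies added. The 14 genes with a TOP start had a median of -0.85 (6 below, 1 above) and the 44 without one at the annotated start had -0.99 (19 below, 2 above), so these letters did not separate the family. Over all 7484 protein-coding genes with a start, 215 with a TOP start had a median of -0.19 and 7269 without had 0.02. With the tract allowed from 3 bases before to 3 after the annotated start, the medians were -0.05 (1136 genes) and 0.03. A TOP start was present at 2.51% of all 32851 starts in the table, and a match describes letters at an annotated start only.

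**Figure D3:**
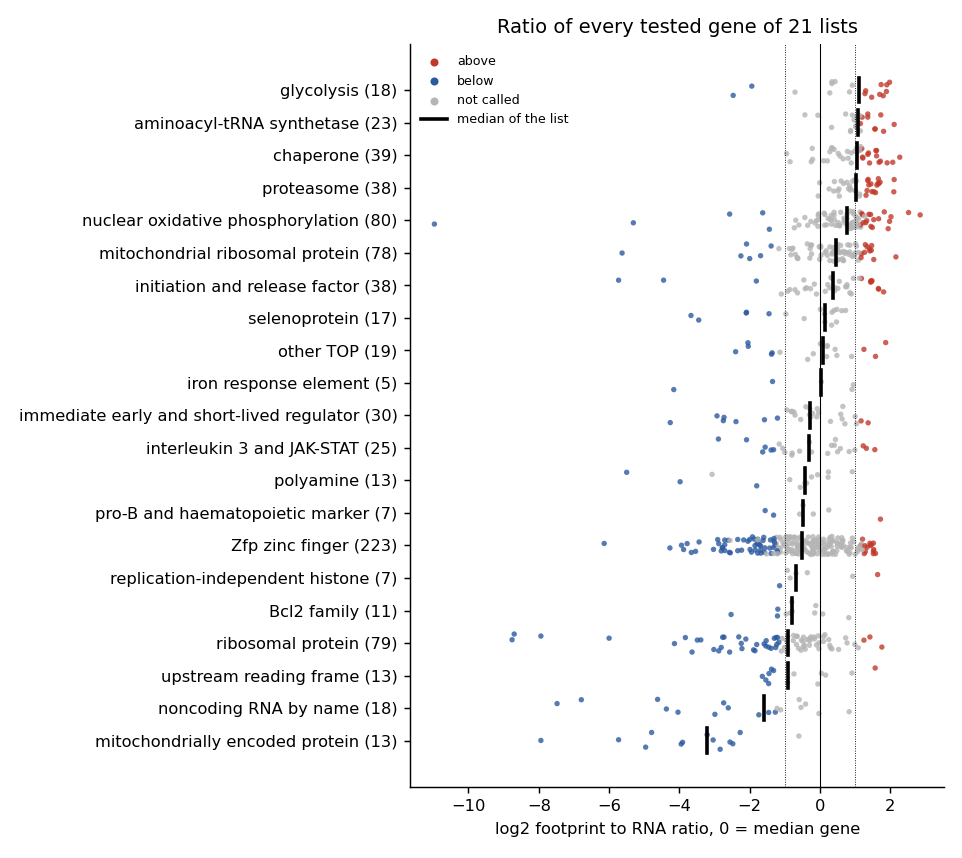
Log2 footprint-to-RNA ratio (x, 0 = median gene, dotted lines at 2-fold) of every tested gene of 21 lists (y, number tested in brackets), coloured by call, with the list median as a bar. The glycolysis, tRNA synthetase, chaperone and proteasome medians lie just above 1, the ribosomal protein median at -0.92 and the mitochondrially encoded median at -3.21.

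Another 19 genes, outside the ribosomal proteins, were listed as TOP genes. At the annotated start 3 of them had a TOP start and 10 did not, and the rest had no annotated start. In this list 3 genes were above and 5 below, or 15.8% and 26.3%, near the 12.5% and 19.3% of all genes. The median was 0.08 (-0.27 with the zero at equal CPM, which turns its sign). Eef1a1, the elongation factor that brings in aminoacyl-tRNA, had RNA of 13200, 13500 and 13800 CPM and footprints of 9520, 9380 and 9020 CPM (-0.19, SD 0.08, adjusted p = 1.0), and Eef2, the translocation factor, was at 0.21 (SD 0.05, adjusted p = 1.0). Both lay near the median gene. Pabpc1, the cytoplasmic poly(A)-binding protein, had RNA of 3890, 4020 and 3890 CPM and footprints of 608, 618 and 541 CPM (-2.40, SD 0.10, adjusted p = 3.21e-10). Tpt1, the translationally controlled tumour protein, was also below (-2.04, SD 0.10, adjusted p = 5.17e-09). Npm1, a nucleolar chaperone of ribosome assembly, had RNA of 2420, 2750 and 2620 CPM and footprints of 7720, 7950 and 6740 CPM and was the highest (1.87, SD 0.16, adjusted p = 1.03e-07).

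Of 38 initiation and release factors 8 were above and 3 below, or 21.1% and 7.89% against 12.5% and 19.3% of all genes, with a median of 0.38. With the zero at equal CPM the counts turned round, to 3 above and 6 below, and the median was 0.03. Counting also those listed with the TOP genes, the 10 tested subunits of eIF3, the scaffold that recruits the small subunit, had a median of 0.73 with 3 above and 1 below, and the 11 eIF4 factors, which act at the cap, had -0.27 with 2 above and 1 below. Eif4a1, the RNA helicase of the cap complex, had RNA of 1250, 1370 and 1350 CPM and footprints of 3590, 3730 and 2630 CPM (1.66, SD 0.31, adjusted p = 1.85e-05). Eif2b3, a subunit of the exchange factor that reloads eIF2 with GTP, was highest at 1.81 (SD 0.03, adjusted p = 8.25e-08). Eif4ebp2, a repressor of cap binding, had RNA of 382, 370 and 354 CPM and footprints of 13.7, 13.4 and 12.8 CPM (-4.45, SD 0.02, adjusted p = 2.36e-14). Eif3j1, an eIF3-associated factor, was lowest at -5.73 (SD 0.70, adjusted p = 0.000115) and shares sequence with its near-identical paralogue Eif3j2, so its value is uncertain.

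Aminoacyl-tRNA synthetases charge tRNAs. Of 23, 9 (39.1%, against 12.5% of all genes) were above and none below (5 above with the zero at equal CPM), the median was 1.07, and the family took 0.506%, 0.506% and 0.504% of RNA counts against 0.929%, 0.927% and 0.914% of footprint counts. Lars, for leucine, had RNA of 219, 223 and 227 CPM and footprints of 790, 770 and 709 CPM (2.11, SD 0.11, adjusted p = 1.99e-09). Nars, for asparagine, was only just past the threshold (1.15, SD 0.02, adjusted p = 0.0379) and was not called without clone 1 (adjusted p = 0.169) or clone 2 (0.0705), with DESeq2 or limma (both 0.169), or with the zero at equal CPM (1.0). Eef1e1, a non-enzymatic partner of the synthetase complex, was lowest at -0.43 (adjusted p = 1.0).

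Genes known for upstream reading frames in their leaders included several low ones. Such frames engage scanning ribosomes before the main coding sequence, and Atf4 is the best-studied case. Of 13 genes, 6 were below, 1 above and 6 not called, with a median of -0.92, and the shares of 46.2% below and 7.69% above stand against 19.3% and 12.5% of all genes. Atf4, the transcription factor of the integrated stress response, had RNA of 439, 444 and 441 CPM and footprints of 145, 142 and 116 CPM, a log2 ratio of -1.38 (SD 0.18, adjusted p = 0.0002). Its RNA was level between clones and all footprint values were under the RNA values. Atf5 (-1.64, SD 0.08, adjusted p = 1.37e-05), Ddit3 (-1.45, SD 0.35, adjusted p = 0.00175) and Ppp1r15a (-1.46, SD 0.22, adjusted p = 0.000107), which act in the same response, were also below. Cebpb, a bZIP factor made in several forms from different start codons, was at -1.54 (SD 0.18, adjusted p = 2.08e-05), and Mdm2, the ubiquitin ligase for p53, was at -1.32 (SD 0.03, adjusted p = 0.000691). Eprs, a tRNA synthetase with upstream start codons, was the one above (1.57, SD 0.08, adjusted p = 2.73e-06). The footprints of upstream frames and of the main frame were not separated in these counts.

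Polyamine genes are controlled at translation by upstream frames and by frameshifting. Of 13, 3 were below (23.1%, against 19.3% of all genes) and none above, with a median of -0.43. Amd1, S-adenosylmethionine decarboxylase, whose leader encodes a short peptide that stalls ribosomes, had RNA of 158, 161 and 148 CPM and footprints of 2.82, 3.41 and 1.96 CPM (-5.50, SD 0.36, adjusted p = 1e-12). Amd2, of the same list, was at -3.07 and not called, and its counts were not added to those of Amd1. How reads were shared between them was not tested, so the value of Amd1 is uncertain. Oaz1, ornithine decarboxylase antizyme, made by a frameshift, was at -3.98 (SD 0.40, adjusted p = 4.19e-06), and at -1.79 with its copies added. Odc1, ornithine decarboxylase, had RNA of 335, 359 and 310 CPM and footprints of 72.8, 75.9 and 77.5 CPM (-1.80, SD 0.12, adjusted p = 4.66e-08). Azin1, the antizyme inhibitor (-0.56, SD 0.19, adjusted p = 1.0), and Eif5a, the factor that carries the polyamine-derived hypusine (0.92, SD 0.11, adjusted p = 1.0), were not called.

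Of 5 genes with an iron response element, 2 were below (40%, against 19.3% of all genes) and none above. Ftl1, the ferritin light chain, had RNA of 1970, 2010 and 2120 CPM and footprints of 86.8, 70.7 and 117 CPM. Its log2 ratio was -4.16 (SD 0.31, adjusted p = 9.18e-11), and -3.21 with copies added. Fth1, the heavy chain, was at -1.35 (SD 0.20, adjusted p = 0.000798). Both ferritin chains carry the element in the 5′ leader, where it blocks initiation when iron is scarce. Tfrc, the transferrin receptor, whose elements are in the 3′ end and act on stability, had RNA of 419, 409 and 415 CPM and footprints of 601, 716 and 535 CPM (0.91, SD 0.24, adjusted p = 1.0). Of 17 selenoprotein genes, whose coding sequences contain a recoded stop codon, 5 were below and none above (29.4% below, against 19.3% of all genes), with a median of 0.13 (-0.22 with the zero at equal CPM). Gpx4, the lipid peroxide reductase, had RNA of 244, 241 and 257 CPM and footprints of 18.7, 17.4 and 17.1 CPM (-3.45, SD 0.11, adjusted p = 7.98e-13; -2.38 with copies added), and Selenot was lowest (-3.67, SD 0.13, adjusted p = 3.92e-13). Gpx1, a related peroxidase, had footprints of 340, 292 and 584 CPM, highest in clone 3, on RNA of 336, 361 and 370 CPM (0.47, SD 0.48, adjusted p = 1.0).

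**Figure D4:**
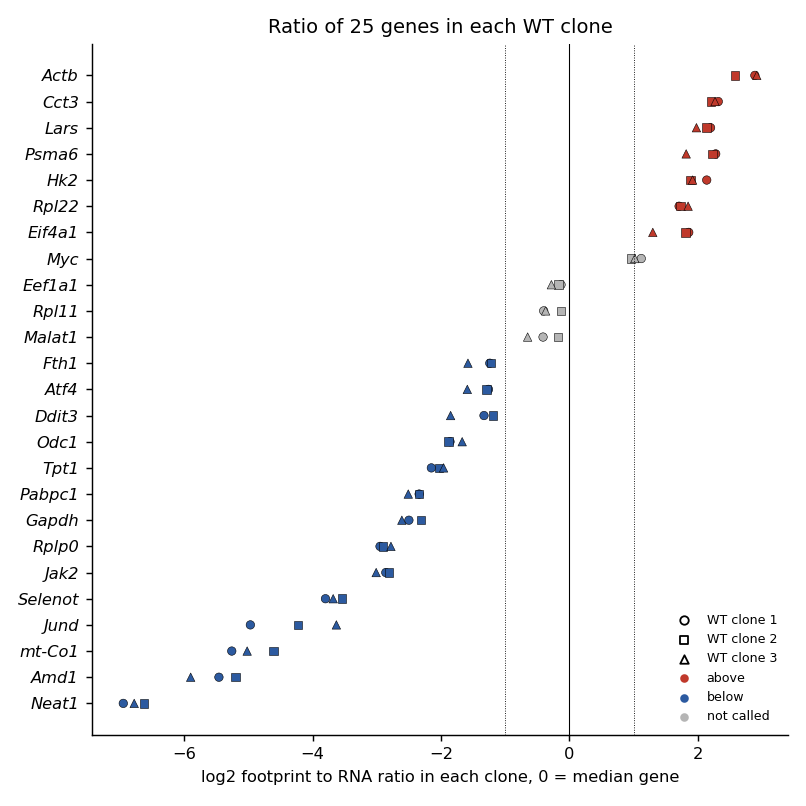
Log2 footprint-to-RNA ratio (x, 0 = median gene, dotted lines at 2-fold) of 25 genes (y), with 1 symbol for each WT clone and colour for the call. The 3 clones of a gene mostly lie close together, as for Rplp0 (SD 0.09) and Rpl22 (SD 0.08), and spread most for Jund (SD 0.67).

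Chaperones, the proteasome and glycolytic enzymes had medians near 1, with larger shares above than the 12.5% of all genes. Of 39 chaperone genes 15 (38.5%) were above and none below (8 above and 2 below with the zero at equal CPM), with a median of 1.04, and they took 2.22% to 2.29% of RNA counts and 3.67% to 4.08% of footprint counts. The 8 subunits of the CCT chaperonin, which folds actin and tubulin, had a median of 1.32 with 5 above, led by Cct3, whose RNA was 327, 343 and 326 CPM and footprints 1290, 1240 and 1250 CPM (2.27, SD 0.06, adjusted p = 4.63e-10). They did not all sit together, since Cct2 was at 0.10 (SD 0.07, adjusted p = 1.0). The 5 Hsp70 genes had a median of 1.15 with 3 above, including Hspa5 of the endoplasmic reticulum (1.68, SD 0.11, adjusted p = 5.39e-07). The 6 DnaJ co-chaperones had a median of 0.42 and none was called. Hsp90ab1, the chaperone with the most RNA, was at 0.78 (SD 0.12, adjusted p = 1.0).

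Of 38 proteasome genes 16 (42.1%) were above and none below (9 above with the zero at equal CPM), with a median of 1.03, and their share was 0.567% to 0.584% of RNA counts and 0.981% to 1.05% of footprint counts. The 6 ATPases of the 19S cap had a median of 1.55 with 5 above, the 14 other 19S subunits 1.08 with 6 above and the 18 subunits of the 20S core 0.96 with 5 above. Psma6, a core subunit, had RNA of 175, 187 and 185 CPM and footprints of 669, 685 and 518 CPM (2.11, SD 0.25, adjusted p = 1.57e-08), and Psmb10, an immunoproteasome subunit, was lowest at -0.05 (SD 0.33, adjusted p = 1.0).

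Of 18 glycolytic genes 9 (50%) were above and 2 below, with a median of 1.10 (6 above and 2 below with the zero at equal CPM). Pkm, pyruvate kinase, had RNA of 2770, 2730 and 2870 CPM and footprints of 7440, 6790 and 7790 CPM (1.74, SD 0.06, adjusted p = 3.43e-07). Hk2, hexokinase, was highest (1.98, SD 0.14, adjusted p = 7.48e-09). The 2 genes below were Gapdh and Pgk1, both with processed copies in the mouse genome. Gapdh had RNA of 3810, 4080 and 4030 CPM and footprints of 531, 642 and 524 CPM (-2.47, SD 0.15, adjusted p = 2.98e-10) and is uncertain for that reason. With its 3 named copies added Gapdh was also at -2.47, while Pgk1 was at 0.51 with copies added.

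Mitochondrial genes differed by where they are encoded. Of the 13 proteins made from mitochondrial DNA, which mitochondrial ribosomes translate, 12 were below (92.3%, against 19.3% of all genes) and none above. Their median was -3.21 (-3.77, -2.79 and -3.23 in clones 1 to 3). They took 2.54% to 2.62% of RNA counts and 0.105%, 0.157% and 0.112% of footprint counts, the largest share in clone 2. mt-Co1, a subunit of cytochrome oxidase, had RNA of 12500, 13200 and 13600 CPM and footprints of 258, 421 and 331 CPM (-4.96, SD 0.33, adjusted p = 6.24e-12). mt-Nd1 was lowest, with footprints of 6.65, 17.9 and 9.96 CPM on RNA of 3240, 3460 and 3270 CPM (-7.94, SD 0.68, adjusted p = 0.00267), a call lost without clone 3 (adjusted p = 0.0652). mt-Nd6, the one protein encoded on the light strand, was not called (-0.60, SD 0.57, adjusted p = 1.0).

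Nuclear genes of the same organelle were not low as a group. Of 80 nuclear oxidative phosphorylation genes 18 were above and 5 below (9 and 5 with the zero at equal CPM), or 22.5% and 6.25% against 12.5% and 19.3% of all genes, with a median of 0.77, and they took 1.63% to 1.68% of RNA counts and 2.29% to 2.38% of footprint counts. The medians by complex were 0.73 (complex I, 39 genes), 1.09 (II, 4 genes), 0.93 (III, 8 genes), 0.77 (IV, 11 genes) and 0.68 (V, 17 genes). Atp5b, the catalytic subunit of ATP synthase, had RNA of 1520, 1590 and 1540 CPM and footprints of 2110, 2040 and 2090 CPM (0.77, SD 0.05, adjusted p = 1.0). Of 78 mitochondrial ribosomal proteins 11 were above and 6 below, or 14.1% and 7.69%, with a median of 0.46. Mrps21 was highest (2.16, SD 0.04, adjusted p = 4.44e-10). Mrpl23 was lowest alone (-5.63, SD 1.18, adjusted p = 0.00349) and stood at 0.94 with its copy added (adjusted p = 1.0).

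The replication-dependent histones had the highest ratio of all protein-coding genes tested, that of H2bc8. Messengers of replication-dependent histones end in a stem-loop in place of a poly(A) tail, and the RNA libraries here were poly(A)-selected while the footprint libraries were not. These genes held 0.00934% to 0.00980% of RNA counts and 3.50%, 3.03% and 4.14% of footprint counts. Of 70, 67 had under 5 CPM of RNA and so no ratio, and 39 of those had at least 100 CPM of footprints. H2bc8 passed the threshold with RNA of 5.64, 4.99 and 5.71 CPM and had footprints of 1200, 1060 and 1830 CPM (8.28, SD 0.33, adjusted p = 4.35e-14), and H1f2, a linker histone, had RNA of 28.6, 30.5 and 34.5 CPM and footprints of 387, 435 and 524 CPM (4.18, SD 0.08, adjusted p = 5.6e-14). H2bc21, of the same list, was at -1.10 (SD 0.10, adjusted p = 0.239) and was called below with the zero at equal CPM (-1.45). The 7 tested replication-independent histones, whose messengers are polyadenylated, had a median of -0.68, with H2ax above (1.64, SD 0.32, adjusted p = 8.17e-05) and H1f0 below (-1.15, SD 0.09, adjusted p = 0.0372), the latter lost without clone 1 (adjusted p = 0.112) or clone 2 (0.166) and with DESeq2 (0.22) or limma (0.143). H2ax messengers exist both with and without a poly(A) tail. The part of poly(A) selection in these ratios was not tested.

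Signalling genes of the interleukin 3 pathway, on which these cells depend, were spread over both sides. Interleukin 3 binds Il3ra and its beta chain, which activates Jak2 and then Stat5. Of 25 genes, 3 were above and 6 below, with a median of -0.30, which is 12% and 24% against 12.5% and 19.3% of all genes. Csf2rb, the common beta chain, had RNA of 504, 608 and 563 CPM and footprints of 122, 163 and 164 CPM (-1.56, SD 0.13, adjusted p = 3.28e-06), and its paralogue Csf2rb2, specific to interleukin 3, was at -1.32 (SD 0.11, adjusted p = 0.000473). The 2 share sequence, so reads may be split between them. Il3ra had footprints of 13, 12 and 22 CPM, highest in clone 3, on RNA of 29.9, 28.4 and 27.5 CPM (-0.58, SD 0.51, adjusted p = 1.0). Jak2, the kinase, was lowest, with RNA of 113, 123 and 126 CPM and footprints of 12.3, 13.7 and 12.5 CPM (-2.89, SD 0.10, adjusted p = 1.65e-11). Of the transcription factors, Stat5a (0.99, SD 0.20, adjusted p = 0.705) and Stat5b (-1.06, SD 0.05, adjusted p = 0.256) were not called. Pim1, a kinase induced by Stat5, was at 0.33 (SD 0.17, adjusted p = 1.0).

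Immediate early and short-lived regulators held both high and low members. Of 30, 2 were above and 7 below, or 6.67% and 23.3% against 12.5% and 19.3% of all genes, with a median of -0.30 (none above and 8 below with the zero at equal CPM). Zfp36l2, which destabilises messengers, had RNA of 623, 471 and 493 CPM and footprints of 54.7, 48.2 and 61.1 CPM (-2.93, SD 0.25, adjusted p = 1.18e-10). Jund, an AP-1 subunit, had footprints of 5.27, 8.31 and 13.8 CPM on RNA of 210, 200 and 216 CPM (-4.26, SD 0.67, adjusted p = 0.0135), a call lost without clone 2 (adjusted p = 0.175). Dusp6, a phosphatase of ERK, was above (1.37, SD 0.17, adjusted p = 0.000231), though not with the zero at equal CPM (adjusted p = 0.43). Trp53 was also above (1.17, SD 0.02, adjusted p = 0.0195). Myc had RNA of 401, 403 and 395 CPM and footprints of 688, 612 and 637 CPM (1.04, SD 0.08, adjusted p = 0.369).

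Of 11 Bcl2 family genes, which control apoptosis, 3 were below (27.3%, against 19.3% of all genes) and none above, with a median of -0.80. Bad, a pro-apoptotic member that interleukin 3 signalling phosphorylates, had RNA of 35.1, 35.6 and 34.9 CPM and footprints of 4.00, 5.22 and 5.23 CPM (-2.53, SD 0.22, adjusted p = 5.58e-09). Bcl2 was at -1.20 (SD 0.13, adjusted p = 0.0133) and lost the call without clone 2 (adjusted p = 0.0892) and with DESeq2 (0.0902) or limma (0.0632). Mcl1, a short-lived survival factor, had RNA of 246, 228 and 233 CPM and footprints of 91.7, 95.6 and 98.3 CPM (-0.96, SD 0.10, adjusted p = 0.933; below, at -1.31, with the zero at equal CPM), and Bcl2l1, encoding Bcl-xL, was at 0.82 (SD 0.14, adjusted p = 1.0). Of the haematopoietic markers, Ptprc was highest, with RNA of 271, 243 and 258 CPM and footprints of 718, 669 and 621 CPM (1.72, SD 0.11, adjusted p = 2.12e-07). Of 223 zinc-finger genes of the Zfp series 14 (6.28%) were above and 54 (24.2%) below (none above and 78 below with the zero at equal CPM), with a median of -0.51. Zfp106, the member with the most RNA, had 648, 654 and 675 CPM and footprints of 64.9, 80.7 and 77.3 CPM (-2.81, SD 0.16, adjusted p = 2.14e-11).

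Long noncoding RNAs had a lower median than protein-coding genes. Of 132 long noncoding RNAs 61 (46.2%) were below and 7 (5.3%) above, with a median of -1.21. The 9126 protein-coding genes had a median of 0.02, with 18.3% below and 12.3% above. Neat1, the nuclear paraspeckle RNA, had RNA of 170, 209 and 233 CPM and footprints of 1.07, 1.63 and 1.67 CPM (-6.79, SD 0.16, adjusted p = 3.5e-15). Norad, a cytoplasmic RNA that binds Pumilio proteins, was at -6.96 (SD 0.31, adjusted p = 4.19e-15), and Oip5os1 was at -7.48 (SD 0.22, adjusted p = 4.19e-15). All 3 had under 2 CPM of footprints in every clone. Gas5, a host of small nucleolar RNAs with a TOP start and known to be bound by ribosomes, had RNA of 152, 162 and 161 CPM and footprints of 266, 206 and 197 CPM (0.83, SD 0.28, adjusted p = 1.0). Snhg1, another such host, was at -0.59 (SD 0.18, adjusted p = 1.0). Malat1, a nuclear RNA, was at -0.41 (SD 0.24, adjusted p = 1.0), with RNA of 79.3, 83.3 and 82.9 CPM and footprints of 47.2, 57.4 and 41.8 CPM. The highest lncRNA, 2700038G22Rik, had RNA of 5.34, 7.0 and 5.64 CPM and footprints of 173, 171 and 159 CPM (5.16, SD 0.19, adjusted p = 4.23e-14). The 123 pseudogenes were spread on both sides, with 44 above (35.8%, against 12.5% of all genes) and 38 below (30.9%, against 19.3%). The middle 50% of their values lay between -3.55 and 3.00.

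The base composition at the transcript start varied with the ratio. GC content of bases 1 to 50 after the annotated start was taken for 7484 protein-coding genes from RefSeq (GRCm38.p6), which were ranked by it and cut into 5 groups of equal size. Shown are the 4 genes with the most RNA among those above in the group of lowest GC content and then the 4 among those below in the group of highest, each with bases 1 to 30, 5′ to 3′, and G and C in capitals.
Rpl37 at chr15:5116613-5116642, plus strand: aGCttatCCaCaGGaaGtGGCGGGGGtGCt
Ifitm3 at chr7:141010715-141010744, minus strand: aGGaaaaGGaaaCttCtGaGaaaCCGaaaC
Hspa5 at chr2:34772090-34772119, plus strand: tCGataCtGGCCGaGaCaaCaCtGaCCtGG
Msn at chrX:96096045-96096074, plus strand: tCtttCCtGGGtGGGGtttGtaaaGtCGtG
Igfbp4 at chr11:99041244-99041273, plus strand: aGCCGCtCaGCCCCCtGCCCCCCGCCGCCt
Rplp2 at chr7:141447651-141447680, plus strand: CtttCGCCGCCGGaCGCCGCCGaGGtCGCa
Tomm20 at chr8:126945892-126945921, minus strand: CCCGCGCaGGCaCCGCCGCGGaCaGCCCGC
Zfp106 at chr2:120563830-120563859, minus strand: GCGtGCGCCtGCGCGCttGCGCGatGGtGG
The first 4 had log2 ratios of 1.25, 1.81, 1.68 and 1.68, and the last 4 had -1.82, -1.46, -2.64 and -2.81. Across the 5 groups, from 24 to 58% in the lowest to 74 to 94% in the highest, the median log2 ratio was 0.37, 0.19, 0.21, -0.12 and -0.59. By clone, the median was 0.33 to 0.40 in the lowest group and -0.61 to -0.57 in the highest. The share of genes above was 18.6%, 14.7%, 13.6%, 9.62% and 5.14%, and the share below was 11.4%, 13.6%, 13.5%, 19.6% and 33.4%.

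Spearman's rho between GC content and the ratio was -0.249 (Pearson's r -0.225) over the 7484 genes, which share the same 6 libraries and are not independent. It was -0.266 over the 5952 genes with a single annotated start. The relation was not limited to the transcript: rho was -0.191 for the 50 bases before the start and -0.121 for bases 201 to 250 before it, stretches that share base composition with the start but are not transcribed from it. The spread within each group remained wide, and genes with GC-rich starts were also among those above, such as Tubb5, a beta tubulin, with 84% and a log2 ratio of 1.91. An ATG in bases 1 to 50 marked no difference in the medians, at 0.03 for the 2824 genes with one and 0.02 for the 4660 without. It was present at 44.3% of all starts. Ribosomal protein genes had a median GC content of 58% over this window, under the 66% of all genes.

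**Figure D5:**
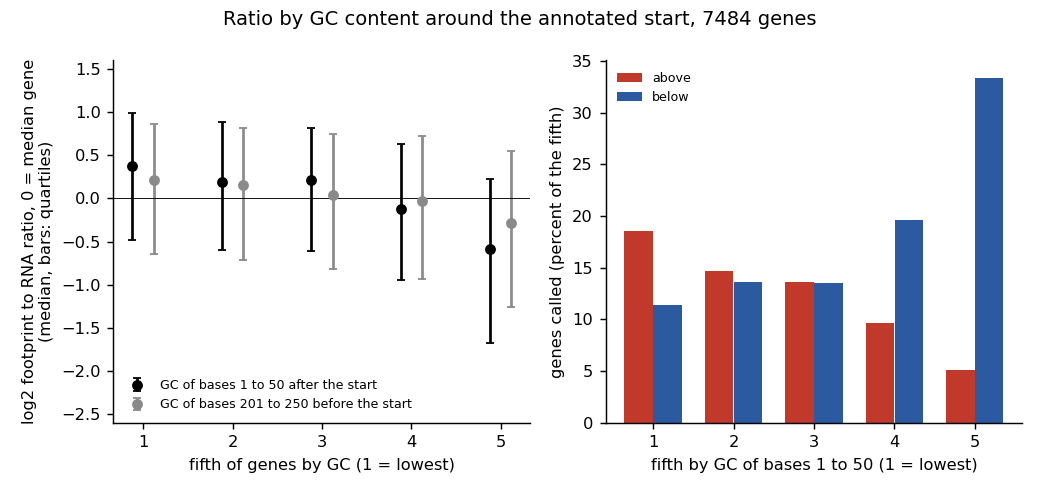
Left, median log2 footprint-to-RNA ratio (y, 0 = median gene; bars, quartiles) of 7484 protein-coding genes in 5 groups by GC content (x, 1 = lowest), for bases 1 to 50 after the start (black) and bases 201 to 250 before it (grey); right, percent of genes above (red) and below (blue) in each group for the window after the start. The black medians go from 0.37 to -0.59, and the share below goes from 11.4% to 33.4%.

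The WT order of genes was also that of the other genotypes in broad terms. With the ratio formed in the same way in each genotype from its own 6 libraries, Spearman's rho with WT over the 9504 genes ran from 0.956 (Rps15 P131S) to 0.987 (Rpl5+/-). The genotypes share the cell line and the protocol but no library. The median of the ribosomal protein genes was -0.92 in WT and between -1.15 (Rps15 H137Y) and -0.81 (Rpl11+/-) in the others, and that of the chaperones was 1.04 and between 0.84 and 1.20. The proteasome median was 1.03 in WT and 1.05 to 1.25 in the others, and that of the immediate early genes -0.30 in WT and -0.14 to 0.02 in the others. The WT median lay outside the range of the others in 4 of the 21 lists set side by side, these 2, the selenoproteins (0.12 against -0.40 to 0.07) and the noncoding RNAs listed by name (-1.60 against -2.67 to -1.69), with no test of the difference. Each of 8 genotypes would be highest or lowest in some lists without any difference, so this count does not set WT apart.

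Genes that differed most between clones had less RNA than all genes and were more often not protein-coding. The SD over clones exceeded 0.5 in 394 genes, whose median RNA was 13.4 CPM against 42.8 CPM over all genes. Of these, 34.3% were not protein-coding, against 3.98% of all genes, and none was a ribosomal protein gene. Genes that have a named copy, or are one, made up 8.63% of them (34), against 3.40% of all genes.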

How the data were processed

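The samples analysed were the 3 WT RNA-seq and 3 WT footprint libraries of Ba/F3 cells. The authors deposited the values as estimated counts for each Ensembl gene, not normalized, as the values themselves show. STAR 2.6.1d, Salmon 1.4.0, DESeq2 1.30 and GRCm38 are named, without their roles, per the submitters' processing notes. Which feature was counted, with which annotation, and how multiply mapping reads were assigned is not given in the sources used here.

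Counts were rounded. Genes with mean RNA of at least 5 CPM were fitted with edgeR 4.0.16 (R 4.3.3, limma 3.58.1, statmod 1.5.0; Python 3.11.15 with numpy 2.4.6, pandas 2.3.3 and scipy 1.17.1 for summaries), with clone and assay as terms and trimmed-mean (TMM) scaling within each assay (factors 0.993 to 1.009). The quasi-likelihood glmTreat test, two-sided, asked for more than 2-fold from the median gene, with Benjamini-Hochberg adjustment over all 9504 genes at 0.05. The biological coefficient of variation was 0.104. Printed CPM are on TMM-scaled library sizes. The script was tested on simulated data. DESeq2 1.42.0 and limma were alternatives. Same-numbered RNA and footprint libraries come from 1 lysate, per the labels' protocols, and their deviations correlated at 0.159 to 0.207 (different numbers -0.123 to -0.051).

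Genes named were, by rule, the 6 highest and 6 lowest ratios among called protein-coding genes with at least 20 CPM of RNA outside the histone and mitochondrially encoded lists and with all 3 clones on the same side, each list's member with the most RNA, the highest and the lowest ratio, a set of well-known genes, and the 3 genes on each side of the RNA threshold. A condition on shared stretches of 10 residues could not be applied. Some items that this rule picks are not reported here. Other genes named as examples were chosen after their values were seen. The members, lists and tests were chosen with earlier results of these data known. Of the gene symbols, 32115 are the file's own and 23112 were looked up in a names table. Biotypes came from a RefSeq table (GRCm38.p6), which lacks 81 of the 9504 genes. A floor of 3 counts over the 3 libraries stands for genes with no footprint and covers counting error only.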

Additional observations from a re-analysis of the deposited data

How the results depend on the processing

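The number of genes called was 3021, with 1191 above and 1830 below. Leaving out 1 clone gave 2731 to 3038 called, 1018 to 1221 above and 1713 to 1817 below. Without the clone block 2978 were called (1148 above, 1830 below), 2931 of them shared, and this changed no direction. DESeq2 size factors (3016), TMM over all 6 libraries (3003), RNA thresholds of 1 CPM (3604) and 20 CPM (2329), protein-coding genes only (2777), genes with no named copy (2860), the DESeq2 Wald test (2581) and limma on ratios per clone (2638) gave counts within 1.5 times. With no RNA threshold, over 17032 genes, 6296 were called (2924 above, 3372 below). With no size threshold 7984 were called (4006 above, 3978 below), and with a threshold of 4-fold 809 (92 above, 717 below). The zero at equal CPM left 574 above and 2471 below.

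Chosen after seeing the data, adding named copies to their gene gave 2975 calls and summing identifiers with the same symbol gave 3012. The 98 named genes were those named by rule and the lowest genes without a named copy, listed after their values were seen. Among these 98, the 2 called values that turned sign were Mrpl23, at 0.94 with copies added, and Nnt, at 0.09 with identifiers summed. Outside that set, genes that turned sign included Ubb, Pgk1, Rps26 and Pgam1 with copies added and Arhgef4 with identifiers summed. Of these, Pgam1 was not called alone. Timm10b, Pagr1a and 4933427D14Rik, not called either way, also turned sign with identifiers summed. Of 1736 results for 98 named genes under single alternatives, 67 lost the call with the sign kept and 29 gained it. The 2 called values that turned sign lost the call as well. In every alternative run, 37 genes kept their call and its direction, or stayed uncalled. Uncalled genes near 0 among them, such as Mrpl12 (0.03), changed sign with the zero at equal CPM. The difference in median between genes with and without a TOP start was -0.21, and -0.09 with the tract allowed within 3 bases of the start. A ratio per coding length and a filter on shared stretches of 10 residues were not run, since coding lengths and protein sequences were not used here. The 3 clones and the low footprint counts of genes such as Atp5g2 and Cycs limit what single values can show, and read assignment limits the values of genes with copies.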

Other observations

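Genes under the RNA threshold of 5 CPM, 45983 in all, held 0.453%, 0.473% and 0.474% of the RNA counts of clones 1, 2 and 3 and 6.62%, 6.30% and 6.92% of the footprint counts. The protein-coding genes among them held 3.76%, 3.29% and 4.30% of footprint counts and the pseudogenes 2.08%, 2.25% and 1.82%. The linker histone genes H1f3 and H1f1 had the most footprints of these. H1f3 had RNA of 0.974, 1.42 and 1.39 CPM and footprints of 2730, 2810 and 3180 CPM, and H1f1 had RNA of 0.253, 0.599 and 0.159 CPM and footprints of 2610, 2620 and 3180 CPM. H2ac24, a core histone gene, had RNA of 2.19, 1.93 and 1.75 CPM and footprints of 2690, 2510 and 2570 CPM. These 3 genes have no ratio in the comparison, though each had more footprints than Rpl11 or Azin1 did. The highest RNA level with no footprint belonged to Gm28661, with 4250, 4020 and 4070 CPM, a ratio at least 182000-fold lower than that of the median gene, and no biotype for it was in the reference table.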
